A study of Homo sapiens with 6 samples.

Results

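Chromosome 19 carries the largest gathering of ZNF genes in the human genome, and their mRNA was followed in A375, an established human melanoma cell line, after an enzyme that degrades methionine was added to the culture. The members were the protein-coding genes of chromosome 19 in GENCODE 29 (GRCh38) whose symbol is ZNF followed by a number. There were 249 of them, and 246 remained after those with under 10 estimated counts in all 6 libraries were dropped, out of 58523 genes with transcripts in the deposited tables. ZNF541, a germ cell factor, was dropped at 0.0526 ± 0.0113 CPM (counts scaled to the size of the library) in treated and 0.0131 ± 0.0227 CPM in control cultures (SD, n = 3 each), and ZNF154 and ZNF816-ZNF321P were listed at 0 in every library. All 246 kept members also passed the count filter of the test, so no member was lost through its level in 1 group.

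RNA of 6 independent cultures was sequenced. In the treated group, 3 cultures (replicates 4, 5 and 6) received hMGL, an engineered human enzyme that breaks methionine down, for 24 h; in the control group, 3 cultures (replicates 1, 2 and 3) were left untreated. The labels name no allele, clone or agent beyond hMGL in either group, and replicate numbers do not recur across groups. Total estimated counts were 50760266 to 53682075 in treated and 53441686 to 59954677 in control libraries. Of the melanocytic marker genes, SOX10 stood at 350.0 CPM in treated and 417 CPM in control cultures and MITF at 41.5 CPM in treated and 43.8 CPM in control cultures, while MLANA, TYR and DCT were under 1 CPM in both groups. S100B, a calcium-binding protein gene of the same list, fell to 5.83 ± 1.12 CPM in treated cultures, against 38.6 ± 0.831 CPM in control cultures (log2 -2.72, adjusted p = 3.01e-06, edgeR), and PMEL, which forms the fibrils of the melanosome, rose to 2.05 ± 0.0987 CPM in treated cultures, against 0.556 ± 0.0505 CPM in control cultures (3.69-fold, adjusted p = 5.25e-08, edgeR). Of 12 markers of leukocytes, endothelium, epithelium and fibroblasts, 11 were under 2 CPM in both groups, and KRT14 stood at 9.1 CPM in treated and 16.6 CPM in control cultures. The part of these markers' changes in the results was not tested.

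Most ZNF proteins bind DNA through a row of C2H2 zinc fingers, each of which holds a zinc ion between a pair of cysteines and a pair of histidines and reads a few bases. In the KRAB subfamily, which makes up most of the chromosome 19 genes, an amino-terminal KRAB domain recruits TRIM28 (KAP1), and TRIM28 brings in the histone methyltransferase SETDB1 and heterochromatin protein HP1, so that the bound site is silenced by H3K9 methylation. Many of these proteins silence transposable elements, and the genes stand in tandem clusters that grew by duplication, which is why neighbours resemble each other in sequence. The methyl groups of such histone and DNA marks come from S-adenosylmethionine, which cells make from methionine.

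Most of the chromosome 19 ZNF genes stood higher after hMGL. In edgeR's quasi-likelihood test with Benjamini-Hochberg adjustment over all 22580 genes tested, 195 of the 246 members (79.3%) rose and 18 (7.32%) fell at an adjusted p below 0.05, where 34.9% of all genes tested rose, 34.5% fell and 69.4% passed in either direction. A further 33 members did not pass. On the log2 scale, the median fold change (treated over control) was 0.98 over the members and -0.02 over all genes tested. At least 2-fold higher were 119 members, against a background of 14.6% of all genes, and at least 2-fold lower were 2, against a background of 12.6%.

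The rise is visible in the libraries themselves. The members' CPM summed to 7604, 7592 and 7758 in treated replicates 4, 5 and 6, against 3671, 3617 and 3653 in control replicates 1, 2 and 3. Per length, their summed TPM was 2841, 2567 and 2543 in treated libraries, against 1259, 1270 and 1127 in control libraries. The groups did not overlap on either scale. Singly, 198 members had all 3 treated libraries above all 3 control libraries and 20 had them all below, where 36.8% of all genes tested lay above, 36.5% below and 73.3% in either direction. The median TPM of a member was 8.05 in treated and 3.68 in control cultures, so these genes were mostly of low level. All these values are relative to the rest of each library, and a change in the amount of RNA per cell cannot be told apart from them.

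**Figure D1:**
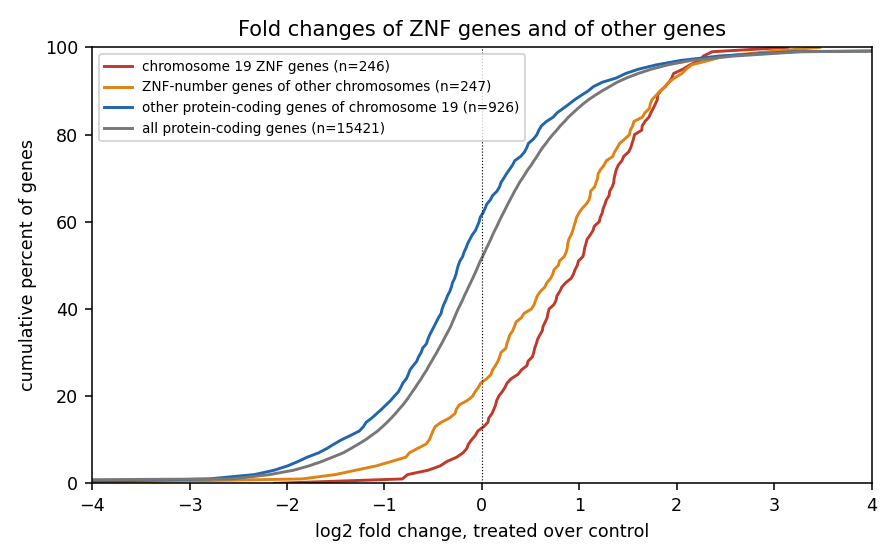
Cumulative share of genes (y axis, percent) by log2 fold change, treated over control (x axis), for the 246 chromosome 19 ZNF genes, 247 ZNF-number genes of other chromosomes, 926 other protein-coding genes of chromosome 19 and all 15421 protein-coding genes tested, members included. Over most of the range the curve of the members lies to the right of the curves of all protein-coding genes and of the other chromosome 19 genes, with a median of 0.98 against -0.03 and -0.24.

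The other genes of the chromosome gave other counts. Among the 926 other protein-coding genes of chromosome 19 that were tested, 269 rose and 440 fell, with a median log2 fold change of -0.24. Inside the boundaries of the clusters described below lie 51 tested protein-coding genes without a zinc finger symbol such as ZNF, ZFP, ZSCAN or ZBTB. Of these, 19 rose and 17 fell (median -0.05). As they were set apart by symbol alone, FIZ1, a zinc finger gene that rose, and loci without a gene name are among them. ZNF-number genes of other chromosomes gave 178 higher and 42 lower of 247, with a median of 0.79. The members and these groups were compared by counts and medians only, and the difference between them was not tested.

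Among 11 members listed for a known target or function, 9 rose (81.8%, beside 34.9% of all genes tested), none fell and 2 did not pass. ZNF558, a repressor of the mitophagy gene SPATA18, had the highest log2 fold change of all members after ZNF177. It lies at chr19:8806170-8832328 on the minus strand and stood at 65.1, 65.8 and 65.6 CPM in treated replicates 4, 5 and 6, against 11.1, 10.1 and 11.2 CPM in control replicates 1, 2 and 3. The treated libraries were nearly level with each other and all above the controls, by 6.07-fold (log2 2.60 ± 0.04 SE, adjusted p = 3.6e-18, edgeR).

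ZNF274 guards the 3′ exons of ZNF genes themselves by bringing SETDB1 and TRIM28 to them. It had 80, 77.6 and 79.5 CPM in treated cultures, against 24.6, 22.6 and 24.9 CPM in control cultures. The groups were far apart, at 3.29-fold (log2 1.72 ± 0.04 SE, adjusted p = 2.87e-16, edgeR). ZNF649, which binds L1 retrotransposons, had 49.1, 49.9 and 50.3 CPM in treated and 14.0, 12.3 and 14.1 CPM in control cultures, a 3.69-fold difference (adjusted p = 4.68e-16, edgeR). ZNF808, which silences MER11 elements and is needed for the human pancreas to form, had 36.9, 35.8 and 36.9 CPM in treated and 10.2, 11.1 and 10.1 CPM in control cultures. Its 3.49-fold rise (adjusted p = 1.2e-15, edgeR) was again wider than the spread within either group. Of the 31-mers of ZNF808, 63.3% were found in no other gene. ZNF568, whose mouse counterpart represses a placental promoter of Igf2, rose 2.91-fold, and ZNF473, a factor in histone mRNA 3′ end processing, rose 2.56-fold.

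ZNF91 and ZNF93, known for silencing SVA and L1 retrotransposons in primates, had other values than ZNF274 and ZNF649. ZNF91 had 55.3, 55.6 and 60.3 CPM in treated cultures, against 57.7, 55.3 and 56.0 CPM in control cultures. Its groups overlapped and it did not pass (log2 fold change 0.02 ± 0.04 SE, adjusted p = 0.68, edgeR). With offsets for effective length or for GC content and length, its value was -0.06 or -0.03, and with library totals alone it passed at 0.09. ZNF93 had 13.8, 14.9 and 14.9 CPM in treated and 11.5, 12.3 and 12.8 CPM in control cultures. It rose by a small step of 1.19-fold (adjusted p = 0.00219, edgeR), which is under the 1.5-fold that a stricter test required.

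ZNF224, a repressor of the aldolase A gene, was the other of the 11 that did not pass. It had 18.5, 22.9 and 19.3 CPM in treated and 12.3, 17.7 and 16 CPM in control cultures, without overlap but with a wide spread (log2 fold change 0.40 ± 0.17 SE, adjusted p = 0.0973, edgeR). It passed in DESeq2 (adjusted p = 0.000502), in limma on TPM, with no count filter and without control replicate 1 or 2 (adjusted p = 0.0492 and 0.0447, edgeR).

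The pair ZNF417 and ZNF587, which silence HERV-K and related elements, shows how alike neighbours can be. The unit of 84 bases below was chosen as the closest match between them that is not identical. It encodes 1 zinc finger with its linker in each, as read from GENCODE 29 transcripts (positions 990 to 1073 of the ZNF587 transcript and 973 to 1056 of the ZNF417 transcript), and the capital marks the 1 base that differs.
ZNF587: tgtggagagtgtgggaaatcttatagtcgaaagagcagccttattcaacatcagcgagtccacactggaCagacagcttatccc
ZNF417: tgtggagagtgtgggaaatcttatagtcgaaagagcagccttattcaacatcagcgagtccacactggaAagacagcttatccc
Of the 31-mers of their transcripts, 54.6% in ZNF587 and 50% in ZNF417 were found in no other gene. ZNF417 had 49.1, 48.8 and 50.5 CPM in treated and 24.3, 26.1 and 24.2 CPM in control cultures, and ZNF587 had 40.2, 36.8 and 40.7 CPM in treated and 25.7, 26.0 and 29.3 CPM in control cultures. Both rose, by 1.99-fold (adjusted p = 1.99e-13) and 1.45-fold (adjusted p = 1.79e-06, edgeR), but the division of reads between them is uncertain. Their division with ZNF814 is uncertain too. It shared 32.4% of the 31-mers of ZNF587 and 31.3% of those of ZNF417. The adjusted p of ZNF587 was 0.902 when at least 1.5-fold was required.

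By level per length, the most abundant member was ZNF146, a protein made almost wholly of zinc fingers, at chr19:36214602-36238774 on the plus strand. Its TPM averaged 202 ± 9.45 in treated and 57.6 ± 5.23 in control cultures (SD, n = 3 each). Its counts gave 471, 475 and 483 CPM in treated and 151, 142 and 146 CPM in control cultures, a clear gap of 3.26-fold (log2 1.71 ± 0.03 SE, adjusted p = 5.05e-18, edgeR). ZNF121, whose product binds MYC, followed with 84.6 ± 3.29 TPM in treated and 30.5 ± 2.94 TPM in control cultures. ZNF562, ZNF561 and ZNF28 completed the 5 highest by TPM averaged over both groups, with log2 fold changes of 1.37, 1.54 and 1.64; a rise in treated cultures itself lifts a gene in that order. In control cultures alone, the fourth place went to ZNF358, which fell to 8.53 ± 0.621 TPM in treated cultures, against 18.3 ± 1.91 TPM in control cultures (SD, n = 3 each).

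The members with the highest fold changes came from several parts of the chromosome. ZNF416 had 24.1, 25.4 and 27.2 CPM in treated and 5.58, 5.12 and 4.92 CPM in control cultures (4.9-fold, adjusted p = 4.03e-15, edgeR). ZNF420, a KRAB protein that restrains p53, had 35.5, 35.0 and 35.9 CPM in treated and 7.41, 7.72 and 6.74 CPM in control cultures (4.87-fold, adjusted p = 2.52e-16, edgeR). In both genes every treated library was above every control library, and the controls lay close together. ZNF461, ZNF571 and ZNF850, which stand near ZNF420 in the same cluster, rose 4.83-fold, 4.68-fold and 4.43-fold. ZNF329 rose 4.39-fold, with 63.6, 63.9 and 63.9 CPM in treated and 14.9, 14.4 and 14.2 CPM in control cultures, and ZNF844 rose 4.73-fold. ZNF114 rose 5.36-fold at a low level of 7.89 ± 0.334 CPM in treated and 1.48 ± 0.161 CPM in control cultures.

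The values of 3 of the most raised members rest on shared sequence. ZNF177 had the highest log2 fold change, 3.14 ± 0.28 SE, at 4.37, 3.44 and 3.69 CPM in treated and 0.651, 0.223 and 0.416 CPM in control cultures. The annotated readthrough gene ZNF559-ZNF177, which joins it to its neighbour, had a log2 fold change of 2.10. As 11.6% of the 31-mers of ZNF177 and 21.0% of those of the readthrough gene were found in no other gene, the estimated counts could be divided between them in other ways, and the readthrough gene no longer passed on protein-coding transcripts alone (log2 1.06, adjusted p = 0.097, edgeR). ZNF888, with 65.6% of its 31-mers its own, rose 4.82-fold.

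**Figure D2:**
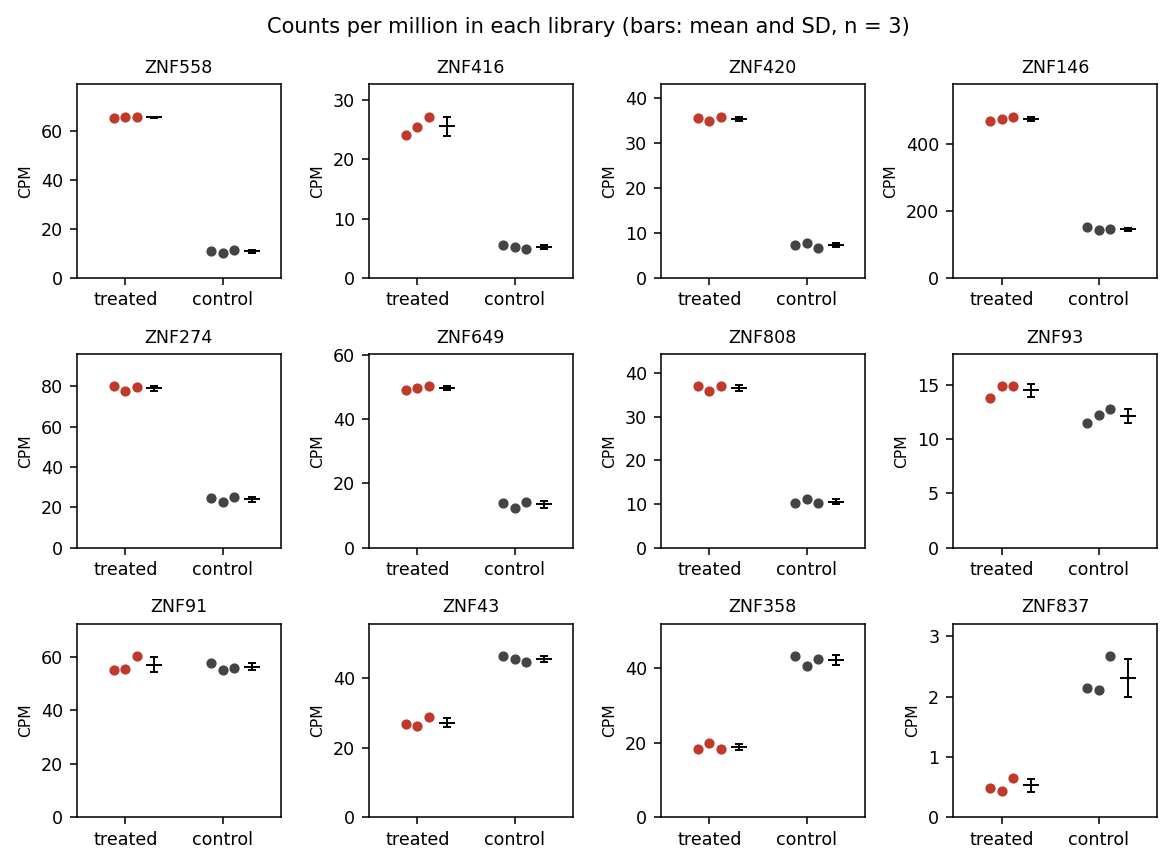
CPM (y axis, a scale from 0 per gene) of 12 chromosome 19 ZNF genes in each of the 3 treated (left, red) and 3 control (right, grey) libraries, with the mean and SD beside the points. The treated points lie above the controls in ZNF558, ZNF416, ZNF420, ZNF146, ZNF274, ZNF649, ZNF808 and ZNF93, overlap them in ZNF91 and lie below them in ZNF43, ZNF358 and ZNF837.

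Other members with a described role also had their own course. ZNF331, an imprinted gene that is often methylated in tumours, rose 2.39-fold, to 40.6 ± 0.967 CPM in treated, against 16.9 ± 0.915 CPM in control cultures. ZNF675, an inhibitor of TRAF6 signalling, rose 1.57-fold. ZNF350 (ZBRK1), a partner of BRCA1, rose 2.6-fold, with 18.7, 17.3 and 18.9 CPM in treated and 7.14, 7.01 and 6.97 CPM in control cultures. ZNF382, which is silenced by methylation in several cancers, stayed near 1 CPM, with 1.02, 0.705 and 1.03 CPM in treated and 1.12, 1.03 and 0.882 CPM in control cultures (adjusted p = 0.55, edgeR), and its sign changed under other settings. ZNF536, a neuronal factor, had 4.73, 4.30 and 3.65 CPM in treated and 4.41, 4.48 and 4.78 CPM in control cultures (adjusted p = 0.405, edgeR). Neither of these last genes separated the groups.

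Only 2 of the 18 members that fell were at least 2-fold lower. ZNF358, on the short arm at chr19:7515292-7521026 on the plus strand and outside the clusters, had 18.4, 19.8 and 18.3 CPM in treated and 43.1, 40.5 and 42.3 CPM in control cultures, a log2 fold change of -1.15 ± 0.04 SE (adjusted p = 8.67e-14, edgeR). ZNF837 had 0.489, 0.438 and 0.655 CPM in treated and 2.14, 2.11 and 2.67 CPM in control cultures (log2 -2.13 ± 0.20 SE, adjusted p = 3.64e-08, edgeR). Both lack a match to the KRAB A box. Smaller falls were measured for ZNF324B (-0.78), ZNF497 (-0.76) and ZNF414 (-0.56), and in ZNF540 (-0.85) at under 1 CPM in both groups, a call that DESeq2 did not make (adjusted p = 0.052). The fall of ZNF69 (-0.24, adjusted p = 0.0326) was reversed in sign on TPM and with an effective length offset and did not pass when any treated library or control replicate 2 or 3 was left out (adjusted p from 0.06 to 0.238, edgeR). The fall of ZNF667 (-0.45, adjusted p = 0.0275) was lost when treated replicate 4 or 6 or control replicate 1 or 2 was left out (adjusted p from 0.0703 to 0.152, edgeR). It was also lost in DESeq2 (adjusted p = 0.099) and in limma on TPM (adjusted p = 0.174 and 0.227). In edgeR it was lost with library totals alone (adjusted p = 0.0741) and on protein-coding transcripts alone (adjusted p = 0.281).

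Along the chromosome, members whose starts lay within 500 kb of the one before were joined, and runs of at least 5 were called clusters. This gave 10 clusters, lettered A to J from the tip of the short arm to the end of the long arm, with 233 members, and 13 members outside them. Every one of the 10 clusters had more members that rose than fell, and so did the 12 clusters at a gap of 250 kb and the 9 at 1000 kb. Cluster H (ZNF175 to ZNF331, chr19:51571298-53580269) had 37 of 39 members higher, none lower and a median log2 fold change of 1.40. Its 2 members that did not pass, ZNF415 and ZNF665, stood near 1 CPM in both groups, and its member with the lowest adjusted p was ZNF468, at 130.0 ± 6.36 CPM in treated and 41.4 ± 0.676 CPM in control cultures. Of the 31-mers of ZNF468, 36.7% were found in no other gene and 54.1% were shared with ZNF320. The estimated counts of ZNF468 could thus be divided in other ways.

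Cluster B (ZNF414 to ZNF846) had 13 of 14 higher and 1 lower, with a median of 1.23, and cluster F (ZNF565 to ZNF573) 22 of 26 higher and 1 lower, with a median of 1.28. All 5 members of cluster A (ZNF554 to ZNF77) rose, with a median of 1.27. In cluster J (ZNF264 to ZNF446), next to the telomere of the long arm, 37 of 42 rose and 3 fell, with a median of 0.99. Cluster G (ZNF575 to ZNF180) had 17 of 23 higher and 1 lower, cluster C (ZNF653 to ZNF791) 19 of 26 higher and 1 lower, and cluster E (ZNF302 to ZNF792) 3 of 5 higher, with medians of 0.96, 0.72 and 1.05. The strongest call of cluster C was ZNF441, with 42.2, 42.2 and 43.8 CPM in treated and 10.9, 11.7 and 11.2 CPM in control cultures (3.79-fold).

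Cluster I (ZNF628 to ZNF835) is of another make, with a median transcript GC content of 63.4% and a KRAB A box in 6 of its 16 members. There 11 rose and 4 fell, with a median of 0.86, which ranged from 0.51 to 1.07 over the alternative settings. ZNF787 rose to 114 ± 1.25 CPM in treated cultures, against 46.3 ± 2.07 CPM in control cultures, while ZNF784 fell to 4.95 ± 0.25 CPM, against 6.48 ± 0.526 CPM in control cultures (adjusted p = 0.00161, edgeR), a call that was lost on TPM and with the GC and length offset. Of the 13 members outside clusters, 11 rose and 1 fell, and ZNF574 had the lowest adjusted p, at 92.2 ± 1.77 CPM in treated and 23.8 ± 0.938 CPM in control cultures (3.87-fold).

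**Figure D3:**
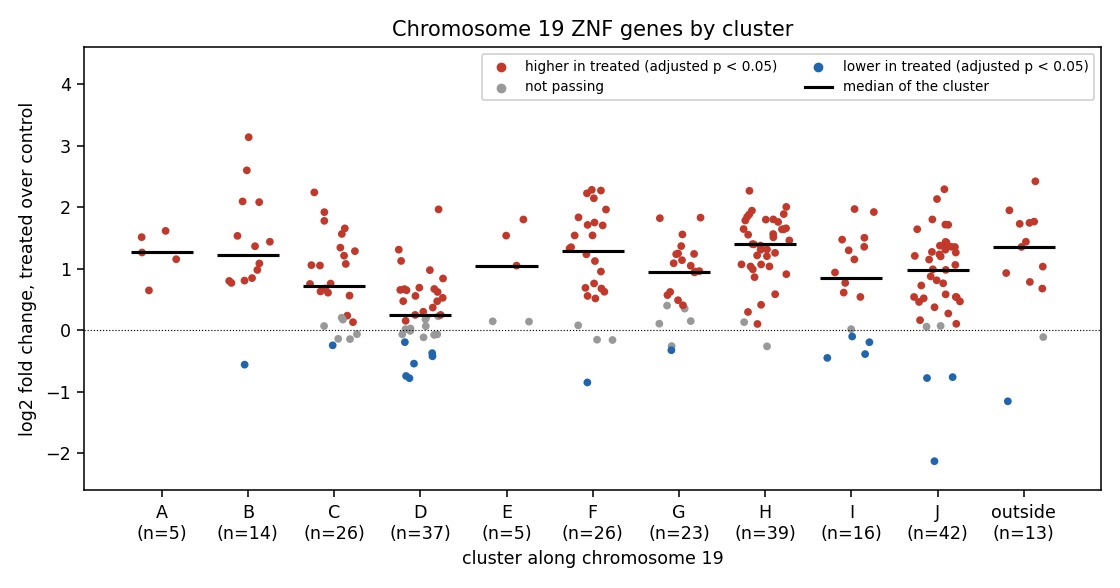
Log2 fold change, treated over control (y axis), of each of the 246 members, by cluster along chromosome 19 (x axis, short arm to long arm, with the members outside clusters last). Red points rose and blue points fell at an adjusted p below 0.05 in edgeR, grey points did not pass, and black bars are medians, which run from 0.25 in cluster D to 1.40 in cluster H.

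Cluster D had the lowest median of the 10. It spans chr19:19668796-24129961, from ZNF101 to ZNF254, beside the centromere on the short arm, and is the region of primate expansions that holds ZNF91, ZNF93 and ZNF43. Of its 37 members 20 rose, 6 fell and 11 did not pass, with a median log2 fold change of 0.25, which ranged from 0.16 to 0.42 over the alternative settings. The other 209 members had 175 higher and 12 lower, with a median of 1.09. At least 2-fold higher were 3 of the 37 members of cluster D, against 116 of the other 209 and 14.6% of all genes tested. The difference between cluster D and the rest was not tested as such.

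Within cluster D the counts were uneven along the chromosome. A gap of over 250 kb divides it, and all 8 members on the telomeric side, ZNF101 to ZNF486, rose with a median of 0.58. ZNF14 had the largest rise there, with 26.1, 23.8 and 24.9 CPM in treated and 6.60, 6.08 and 6.46 CPM in control cultures (3.91-fold). Of the 29 members on the centromeric side, ZNF737 to ZNF254, 12 rose, 6 fell and 11 did not pass, with a median of 0.16. The share that rose was thus 41.4%, beside 34.9% of all genes tested, and the share that passed either way was 62.1%, beside 69.4% of all genes tested.

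The 6 that fell were ZNF66, ZNF708, ZNF738, ZNF493, ZNF43 and ZNF730. ZNF43 had 26.7, 26.2 and 28.7 CPM in treated and 46.3, 45.5 and 44.7 CPM in control cultures, without overlap (log2 -0.74 ± 0.04 SE, adjusted p = 1.5e-11, edgeR). ZNF66 had 5.83, 6.10 and 6.14 CPM in treated and 10.2, 10.9 and 9.93 CPM in control cultures (log2 -0.78 ± 0.08 SE, adjusted p = 7.13e-08, edgeR). ZNF708 was the smallest of these falls, at 12.8 ± 0.801 CPM in treated and 14.6 ± 0.86 CPM in control cultures (adjusted p = 0.017, edgeR). ZNF208, with 36 zinc fingers the longest row of all members, had 11.1, 10.1 and 11.1 CPM in treated and 11, 11.6 and 11.2 CPM in control cultures and did not pass (adjusted p = 0.412, edgeR). ZNF728 rose 2.48-fold beside ZNF730, which had a log2 fold change of -0.54.

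**Figure D4:**
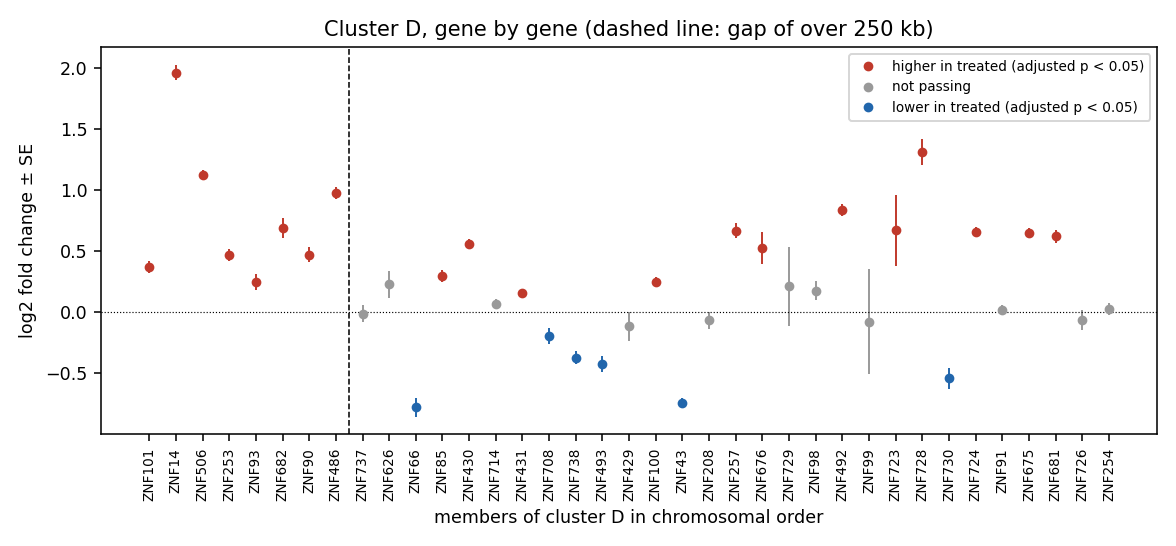
Log2 fold change, treated over control, with its SE (y axis), of the 37 members of cluster D in chromosomal order (x axis), with the dashed line at the gap of over 250 kb. All 8 members left of the line rose, while right of it 12 rose (red), 6 fell (blue) and 11 did not pass (grey).

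The promoters of a few members show the sequences at annotated starts of these genes, with the first entry listed taken for each. They are RefSeq sequences (GRCh38.p14) from 250 bases before to 50 bases after the start, in the direction of the gene, and capitals mark matches to the motifs searched on both strands: TACANNTCC for ZNF143, GCGCANGCG for NRF1, CCGGAAGT for ETS factors and CCAAT for NF-Y, of which none shown overlaps another. ZNF146 and ZNF274 are shown as strongly raised members, ZNF43 as a lowered and ZNF91 as a member of cluster D that did not pass. The promoter of ZNF558, which rose more than either raised member shown, was searched too. It had no match to these motifs or to the others named below, and its sequence is left out.
ZNF146, chr19:36214856-36215155, plus strand: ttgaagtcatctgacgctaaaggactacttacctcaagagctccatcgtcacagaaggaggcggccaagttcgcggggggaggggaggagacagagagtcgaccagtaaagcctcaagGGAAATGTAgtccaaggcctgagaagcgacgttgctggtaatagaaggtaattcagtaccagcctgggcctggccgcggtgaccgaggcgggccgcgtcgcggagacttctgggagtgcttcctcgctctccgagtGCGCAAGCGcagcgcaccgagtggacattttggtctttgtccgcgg
ZNF274, chr19:58182811-58183110, plus strand: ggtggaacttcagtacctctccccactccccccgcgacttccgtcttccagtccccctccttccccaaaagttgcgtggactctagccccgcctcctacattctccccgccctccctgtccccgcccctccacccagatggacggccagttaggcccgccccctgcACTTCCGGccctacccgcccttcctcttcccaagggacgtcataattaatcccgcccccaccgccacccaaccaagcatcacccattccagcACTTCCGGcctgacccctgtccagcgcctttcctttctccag
ZNF43, chr19:21836133-21836432, minus strand: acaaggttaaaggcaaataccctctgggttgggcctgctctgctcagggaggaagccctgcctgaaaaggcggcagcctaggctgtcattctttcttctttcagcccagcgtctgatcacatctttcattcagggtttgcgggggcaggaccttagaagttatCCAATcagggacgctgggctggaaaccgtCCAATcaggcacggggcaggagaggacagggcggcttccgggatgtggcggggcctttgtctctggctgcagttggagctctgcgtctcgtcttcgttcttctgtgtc
ZNF91, chr19:23395422-23395721, minus strand: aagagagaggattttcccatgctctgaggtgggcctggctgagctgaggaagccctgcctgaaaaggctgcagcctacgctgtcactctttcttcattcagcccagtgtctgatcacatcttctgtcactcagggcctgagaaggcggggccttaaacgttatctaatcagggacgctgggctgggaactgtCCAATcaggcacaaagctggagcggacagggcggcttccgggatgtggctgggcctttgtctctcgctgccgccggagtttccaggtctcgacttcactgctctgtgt

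The ZNF43 and ZNF91 promoters had 243 of 300 bases in common (81.0%) when aligned, and both carry CCAAT with its first base 58 bases before the start. The ZNF43 window lies within the annotated gene, whose 5′ end is at position 21852125. Whether the starts used here are active in these cultures was not tested. CCAAT on either strand was found in the promoters of all 29 cluster D members with an entry, against 87 of the 185 other members with one and 34.6% of all 35116 promoters. In 27 of these 29 the match began 40 to 100 bases before the start, against 50 of the other 185 members. Among members outside cluster D, the median log2 fold change was 0.96 with a CCAAT match and 1.24 without.

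Over all 214 members with a promoter entry, 1 entry each, the ZNF143 motif was found in 16.4%, against 3.84% of all promoters. The latter were all 35116 entries, not reduced to 1 per gene or limited to genes tested here, so the sets are unlike. The ETS motif was found in 21.0%, against 4.14%, and the NRF1 motif in 14%, against 7.52%. The CRE motif TGACGTCA was in 3.27% of the members' promoters and 1.85% of all, and the YY1 motif AAGATGGCG in 3.74% of the members' and 1.75% of all. The ATF4 motif TGATGNAA was in 1.87% of the members' promoters and 3.62% of all, and the E box CACGTG in 4.21% of the members' and 7.26% of all. A ZNF143 match was in 30 of the 171 members that rose and 3 of the 17 that fell. For NRF1 the numbers were 20 and 5, for ETS 40 and 1, and for CCAAT 88 and 12. All members with a YY1 (8), CRE (7) or E box (9) match rose. The splits by call were not tested. The median log2 fold change was 0.94 with a ZNF143 match and 0.98 without, and 1.09 with an ETS match and 0.93 without. With an NRF1 match it was 1.10, and 0.96 without. All of these are matches of letters in a window of 300 bases, and a match is not a measured site of binding.

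Members with a KRAB A box in any of their translated coding sequences numbered 211. Of these, 175 rose and 11 fell, with a median log2 fold change of 1.04. Of the 35 without one, 20 rose and 7 fell, with a median of 0.68. Raised members without KRAB included ZNF146, ZNF121, ZNF134 and ZNF329, so the rise was not limited to KRAB genes. By number of C2H2 fingers, members with 0 to 10 fingers had a median of 1.07, those with 11 to 14 had 0.94 and those with 15 to 36 had 0.85, and Spearman's rho between fingers and log2 fold change was -0.04 across the 246 genes.

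By their level in control cultures alone, a split chosen after the data were seen, members high and low had similar medians. The control level is itself part of the fold change, so this split is not independent of it. Of the 82 with the lowest control level, 0.193 to 5.90 CPM, 57 rose and 4 fell, and their median log2 fold change was 1.01. Of the 82 with the highest, 15.6 to 153 CPM, 72 rose and 7 fell, with a median of 0.93. Ordered by the mean of all 6 libraries, which the treated level itself enters, the lowest 82 members had 51 higher and 8 lower (median 0.68) and the highest 82 had 76 higher and 3 lower (median 1.18). Across the 246 members, which share the same 6 libraries, Spearman's rho of log2 fold change was -0.03 with mean control CPM, 0.27 with mean CPM over both groups, 0.10 with transcript length and 0.00 with GC content. The 178 members with at least 80% of their 31-mers found in no other gene had 142 higher and 14 lower (median 1.06), and the 68 others had 53 higher and 4 lower (median 0.70).

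Zinc finger genes of chromosome 19 with other names followed a mixed course. Of the 19 with symbols such as ZFP, ZSCAN, ZIK or ZBTB, or PEG3, 13 were tested. Of these, 8 rose (61.5%, beside 34.9% of all genes tested) and 4 fell (30.8%, beside 34.5%), with a median of 0.98. That median is the value of ZFP36, which did not pass (adjusted p = 0.0872, edgeR). ZFP36 was taken in by its symbol, though its zinc fingers are of the CCCH and not the C2H2 kind. ZIK1, in cluster J, had 40.9, 41.3 and 41.1 CPM in treated and 15.3, 15 and 14.2 CPM in control cultures, a 2.77-fold rise. PEG3, a paternally expressed imprinted gene, rose 3.14-fold at a low level, 4.63 ± 0.176 CPM in treated and 1.47 ± 0.028 CPM in control cultures. ZFP14 went against its neighbours in cluster F, with 2.58, 1.79 and 2.16 CPM in treated and 10.6, 9.45 and 9.98 CPM in control cultures (log2 -2.20 ± 0.12 SE, adjusted p = 1.04e-11, edgeR).

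Among genes of the proteins through which KRAB factors act, more fell than rose. Of 37 genes of this machinery and of heterochromatin, all tested, 10 rose (27.0%, beside 34.9% of all genes tested) and 23 fell (62.2%, beside 34.5%), with a median log2 fold change of -0.37. TRIM28, the corepressor that KRAB domains bind and itself a gene at the end of chromosome 19, had 207, 205 and 210 CPM in treated and 602, 585 and 600 CPM in control cultures. It was lower in every treated library, at 0.348 times the control level (log2 -1.52 ± 0.03 SE, adjusted p = 6.58e-18, edgeR). Of the HP1 genes, CBX1 fell by 1.07, CBX3 by 1.24 and CBX5 by 0.37 on the log2 scale, and the fall of CBX5 was lost on TPM (adjusted p = 0.321, limma).

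Further components fell to a like degree. CHD4, an ATPase of the NuRD complex, had 346 ± 2.99 CPM in treated and 824 ± 15.4 CPM in control cultures. SUMO2, whose conjugation to TRIM28 allows it to bind SETDB1, had 84.2 ± 1.07 CPM in treated and 211 ± 4.45 CPM in control cultures. The H3K9 methyltransferase EHMT2 had 26.5 ± 0.672 CPM in treated and 83.3 ± 3.53 CPM in control cultures, and the DNA methyltransferase DNMT3A had 6.44 ± 0.686 CPM in treated and 19 ± 0.133 CPM in control cultures. All of these passed in edgeR, with log2 fold changes from -1.65 to -1.25.

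SETDB1 itself and its partner ATF7IP stood on the other side. SETDB1 had 63.1, 59.5 and 66.9 CPM in treated and 45.3, 46.5 and 45.7 CPM in control cultures (1.38-fold, adjusted p = 2.09e-08, edgeR), and ATF7IP rose 1.25-fold. Of the further H3K9 methyltransferases listed, SETDB2 rose 1.84-fold (adjusted p = 1.2e-10) and SUV39H1 1.4-fold (adjusted p = 4.58e-09, edgeR). EHMT1 and SUV39H2 fell slightly, with log2 fold changes of -0.12 and -0.18, beside the larger fall of EHMT2. Among H3K9 demethylases, KDM4A rose 1.49-fold and KDM4C 1.74-fold, while KDM4B was at 0.436 times its control level. Of the HUSH complex and its partner MORC2, MPHOSPH8 had 88.7 ± 2.69 CPM in treated and 89.0 ± 4.28 CPM in control cultures (adjusted p = 0.914, edgeR), and MORC2 did not pass (adjusted p = 0.419, edgeR) but did so without treated replicate 6 (adjusted p = 0.012). TASOR fell slightly (log2 fold change -0.11, adjusted p = 0.00652, edgeR), a call that was lost without treated replicate 5 (adjusted p = 0.103) or control replicate 3 (adjusted p = 0.0597) and with library totals alone (adjusted p = 0.324). UHRF1, a reader of hemimethylated DNA, had 135, 149 and 36.5 CPM in treated and 303, 313 and 300 CPM in control cultures and did not pass (adjusted p = 0.0786, edgeR), with treated replicate 6 well below the other treated libraries. Without that library UHRF1 was lower in treated cultures by a log2 fold change of -1.08 (adjusted p = 1.7e-06, edgeR).

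A further readout is how a member's counts were divided among its transcripts. For 160 members with at least 10 counts on protein-coding and on other transcripts, the log2 ratio of coding to other counts was compared with limma. The protein-coding share rose in 32 and fell in 9, together 25.6% of the members tested, where 5.14% of all 11425 genes so tested rose, 8.53% fell and 13.7% passed in either direction. The median difference in log2 ratio was 0.38 over the members and -0.05 over all genes. Among 170 ZNF-number genes of other chromosomes, the share rose in 26 and fell in 6 (18.8% together), with a median of 0.22. Among 674 other protein-coding genes of chromosome 19, it rose in 28 and fell in 65, with a median of -0.08. The difference between these groups was not tested. The counts of members depend on having all 6 libraries: without any 1 of them, treated or control, 14 to 17 members rose and 1 to 3 fell.

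ZNF229 showed the largest shift. Protein-coding transcripts held 74.1%, 73.8% and 72.4% of its estimated counts in treated and 32.2%, 26.1% and 27.5% in control libraries (log2 ratio difference 2.79 ± 0.16 SE, adjusted p = 0.0016, limma). In CPM, its coding transcripts stood at 35.2 ± 0.228 in treated and 5.83 ± 0.942 in control cultures, while its other transcripts stood at 12.8 ± 0.498 in treated and 14.5 ± 0.333 in control cultures. The higher level of this gene lay in its coding transcripts. ZNF274 had a coding share of 89.7%, 89.6% and 90.6% in treated and 75.5%, 73.7% and 73.5% in control libraries (adjusted p = 0.00219, limma), and ZNF132 of 72.7%, 78.9% and 72.2% in treated and 42.1%, 36.4% and 50.2% in control libraries (adjusted p = 0.013, limma). ZNF473 rose in share too, with 98.4%, 97.8% and 98.5% in treated and 92.1%, 92.9% and 92.8% in control libraries, and so did ZNF583 and ZNF136.

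ZNF606 and ZNF781 shifted the opposite way. ZNF606 had a coding share of 67.1%, 71.1% and 63.7% in treated and 87.4%, 82.7% and 85.9% in control libraries (log2 ratio difference -1.5 ± 0.20 SE, adjusted p = 0.0123, limma), although its coding transcripts were higher in CPM, at 9.79 ± 0.588 in treated and 4.99 ± 0.592 in control cultures. ZNF781 had a coding share of 50.6%, 39.7% and 37.3% in treated and 73.0%, 65.7% and 74.7% in control libraries (adjusted p = 0.0195, limma). ZNF677 fell in share to 40.5%, 44.9% and 42.2% in treated, against 53.3%, 58.5% and 60.5% in control libraries. Transcript shares rest on how kallisto divides reads among overlapping transcripts, and that error was not measurable here.

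**Figure D5:**
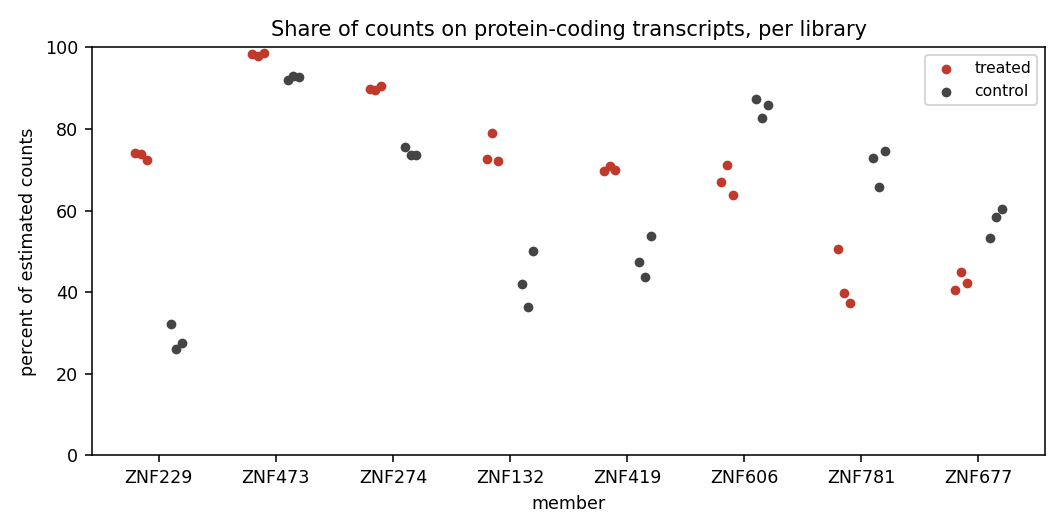
Percent of a gene's estimated counts on protein-coding transcripts (y axis) in each treated (left, red) and control (right, grey) library, for 8 members whose share passed the test in limma. The treated points lie above the controls in ZNF229, ZNF473, ZNF274, ZNF132 and ZNF419 and below them in ZNF606, ZNF781 and ZNF677, with no overlap in any of the 8.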

How the data were processed

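RNA of A375 cells was measured in 3 treated and 3 control cultures. Per the file headers, the deposited tables give for each transcript its length, its effective length, estimated counts (expected counts, not whole) and TPM made by the authors. Per the submitters' processing notes, DESeq2 1.30.0 and kallisto 0.45.0 were used, without a stated role; the build, index, RNA selection and strandedness are not given in the sources used here.

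Of 244939 transcripts, 203436 matched GENCODE 29, and the other 41503, with 4.86% to 5.13% of a library's counts, were left out. Estimated counts were summed to genes, rounded and filtered (filterByExpr, minimum count 10, minimum total 15). TMM scaling and the two-sided quasi-likelihood F test of edgeR 4.0.16 (R 4.3.3) followed, with Benjamini-Hochberg adjustment over 22580 genes and a threshold of 0.05. CPM are counts scaled by the TMM-scaled library total, and their errors are SDs over 3 libraries. The depth per library is given above, and the common biological coefficient of variation was 0.074. Since TMM centres the typical gene, fold changes are relative to it. The labels call the cultures independent. On simulated counts the test was checked before use.

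Coding shares were tested with limma 3.58.1 on the log2 ratio of counts on protein-coding transcripts to counts on others, 0.5 added to each. DESeq2 1.42.0, limma on log2(TPM + 1) and log2(TPM + 0.1), other scalings, filters, offsets for effective length or for GC content and length, at least 1.5-fold (glmTreat), cluster gaps and leaving out each library were alternatives. C2H2 fingers were counted by pattern in the longest translated GENCODE coding sequence of a gene, in place of the RefSeq protein planned. A KRAB A box was called when any of its translated coding sequences matched. The 31-mers were compared over all GENCODE transcripts. Promoters were matched by symbol for 214 of 246 members, with the first entry of each kept, while all 35116 entries served as the background.

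The members, lists and tests were chosen with earlier results of these data known. Named genes were the 12 most raised and the 12 most lowered called members (mean of at least 1 CPM, groups without overlap), the 5 most abundant by TPM, the strongest call each way per cluster, members and machinery genes with a known role, and the 5 largest shifts in coding share each way. Others in the text (ZNF350, ZNF415, ZNF665, ZNF134, ZNF208, ZNF708, ZNF728, ZNF419, ZNF677, PEG3, ZIK1, ZFP14 and a few machinery genes) were chosen after their values were seen.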

Additional observations from a re-analysis of the deposited data

How the results depend on the processing

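All 10 clusters had more members higher than lower under each alternative refitted by cluster, as did 12 of 12 clusters with a gap of 250 kb and 9 of 9 with 1000 kb; members with mostly unique 31-mers were not counted by cluster. The members' median log2 fold change was 1.06 with library totals alone, 0.83 and 1.05 on log2(TPM + 1) and log2(TPM + 0.1), 0.93 with the GC and length offset, and 1.06 over members with at least 80% of their 31-mers found in no other gene. With at least 1.5-fold required, 147 members were higher (18.7% of all genes), 5 lower (16.7%) and 94 did not pass, and limma on TPM gave 11 lower with either pseudocount. Leaving out each library in turn gave 190 to 195 members higher, 14 to 18 lower, 35 to 39 not passing and a median of 0.97 to 1.04. For coding shares it gave 14 to 17 members higher and 1 to 3 lower, against 32 and 9 with all libraries.

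Of 67 named genes under 18 alternatives, 1120 of 1204 values kept direction and side of the threshold, 50 lost and 10 gained the call, and 24 changed sign, in 5 genes of which only ZNF69 had passed. The log2 fold change of ZNF91 was -0.0552 with the effective length offset and -0.0295 with the GC and length offset. ZNF382 had 0.0743 and 0.29 on TPM with 1 and 0.1 added, 0.42 with the effective length offset and -0.24 to 0.04 without single libraries, highest without treated replicate 5. ZNF536 had -0.17 to 0.0148, highest without treated replicate 6. ZNF69 had 0.24 and 0.28 on TPM and 0.19 with the effective length offset. MPHOSPH8 had 0.0716 with library totals, 0.0742 with the effective length offset, 0.17 and 0.18 on TPM, 0.0219 on protein-coding transcripts, 0.0114 without a filter, 0.0133 with 10 counts in 1 library, 0.0039 with RLE size factors and with DESeq2, and -0.0424 to 0.0411 without single libraries. The cause of these shifts was not tested. Members under about 1 CPM were measured with few counts, and the error of dividing reads among near-identical genes was not measurable. No paired analysis was possible because the groups share no replicate number.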
